A study of Mus musculus with 10 samples.

Results

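Neurogranin (Nrgn), Purkinje cell protein 4 (Pcp4) and 7 genes for calmodulin, its kinases, its phosphatase and a related axonal protein were followed across the lateral and the medial shell of the mouse nucleus accumbens. The 9 genes, Nrgn, Pcp4, Gap43, Calm2, Calm3, Camk2a, Camk2b, Camk4 and Ppp3ca, were found by symbol among the 20483 genes of the deposited table, and all 9 passed the filter on low values that left 15596 genes for testing. They were chosen by their link to calmodulin and on their measured levels in these same 10 libraries, so the differences between the regions are given for them as a description, without a test. Each region was represented by 5 libraries (n = 5) from WT mice, labelled as biological replicates of mouse neural cells, with no other allele or agent named. They were made with Geo-seq, in which small areas of a tissue section are cut out with a laser and their RNA is amplified. The sources used here do not give age, sex or the exact place of capture, or whether libraries came from separate animals. The p-values therefore measure only the spread between these libraries, which may be technical.

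Calmodulin is the main calcium sensor of neurons: with calcium bound it switches on CaM kinases, the phosphatase calcineurin and several cyclases and pumps. Neurogranin in dendritic spines, GAP-43 in axons and growth cones and PCP4 (also called PEP-19) are small proteins that hold or modulate calmodulin through a short IQ motif, and protein kinase C phosphorylates neurogranin and GAP-43 within that motif and so releases calmodulin. In the striatum this chemistry stands between glutamate-driven calcium entry and the long-term change of synapses on spiny projection neurons.

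The IQ motif is shown as the coding DNA of 20 codons (60 bases), because it is the feature that joins the proteins at the centre of the results. The stretches lie in coding exons of GENCODE M21 on GRCm38, at chr9:37546046-37546105 (minus strand, exon 2 of Nrgn), chr16:96525452-96525511 (plus strand, exon 3 of Pcp4) and chr1:171174389-171174448 (minus strand, exon 3 of the Pcp4 relative Pcp4l1). Capitals mark the codons of the isoleucine and glutamine that give the motif its name and of the arginine that follows them.
Nrgn: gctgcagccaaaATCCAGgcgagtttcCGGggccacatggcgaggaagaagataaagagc
Pcp4: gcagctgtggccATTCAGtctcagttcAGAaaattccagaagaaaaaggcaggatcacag
Pcp4l1: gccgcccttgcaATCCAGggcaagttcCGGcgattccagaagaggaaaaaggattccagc
Without gaps, Nrgn and Pcp4 shared 23 of the 60 bases, and Pcp4l1 shared 34 with each of them. The coding regions give proteins of 78 residues for Nrgn, 62 for Pcp4 and 68 for Pcp4l1.

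Nrgn showed the widest gap between the regions of the 9 genes. It was at 63.8, 168, 86.2, 154 and 168 TPM (a level per gene length, scaled to the same total in every library) in lateral replicates 1 to 5, and at 9.54, 6.71, 4.08, 14.4 and 1.61 TPM in medial replicates 1 to 5. The groups did not overlap: the lowest lateral library was 4.44 times the highest medial one. The mean level was 128 ± 49.3 TPM (SD, n = 5) in lateral and 7.26 ± 4.95 TPM (SD, n = 5) in medial libraries, a ratio of 17.6. On the log2(TPM + 1) scale the difference, lateral minus medial, was 4.11 with a standard error of 0.43; this scale understates differences of low values. Among all genes of a library Nrgn ranked between 464 and 1365 by level in lateral and between 6023 and 14675 in medial tissue. Nrgn lies on chromosome 9, 37544492 to 37552904, minus strand, and overlaps no other annotated gene. In captured tissue, fewer cells of a type and less RNA per cell cannot be told apart.

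Pcp4 was among the most abundant messages of the lateral shell. Its levels were 3708, 4939, 3040, 3913 and 4373 TPM in lateral replicates 1 to 5 and 1961, 506, 691, 904 and 958 TPM in medial replicates 1 to 5. The groups did not overlap, although medial replicate 1 stood well above the other medial libraries and the lowest lateral library was only 1.55 times as high. Mean levels were 3995 ± 713 and 1004 ± 564 TPM (SD, n = 5 each), with a log2 difference of 2.13 and a standard error of 0.29. By level Pcp4 ranked 23 to 35 in lateral and 34 to 107 in medial libraries, so it stayed among the leading genes in both regions. The gene spans 96467606 to 96525793 on the plus strand of chromosome 16 and overlaps Igsf5 on the same strand; Igsf5 was not analysed here.

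The ratio of Pcp4 to Nrgn within a library, which does not depend on scaling between libraries, ran from 25.3 to 58.1 in lateral and from 63.0 to 595 in medial tissue, without overlap. Every medial library thus held more Pcp4 per Nrgn than any lateral one.

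Gap43, which encodes the IQ protein of axons, did not share this pattern. It was at 331, 303, 386, 344 and 360 TPM in lateral and at 286, 388, 381, 394 and 429 TPM in medial replicates 1 to 5. The ranges overlapped, and the lowest of all 10 values was medial replicate 1. The means were 345 ± 31.2 and 376 ± 53.2 TPM (SD, n = 5 each), a log2 difference of -0.12 with a standard error of 0.14, which turned to 0.10 under median-ratio scaling. The ratio of Gap43 to Nrgn was 1.80 to 5.19 in lateral and 27.4 to 267 in medial libraries.

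**Figure D1:**
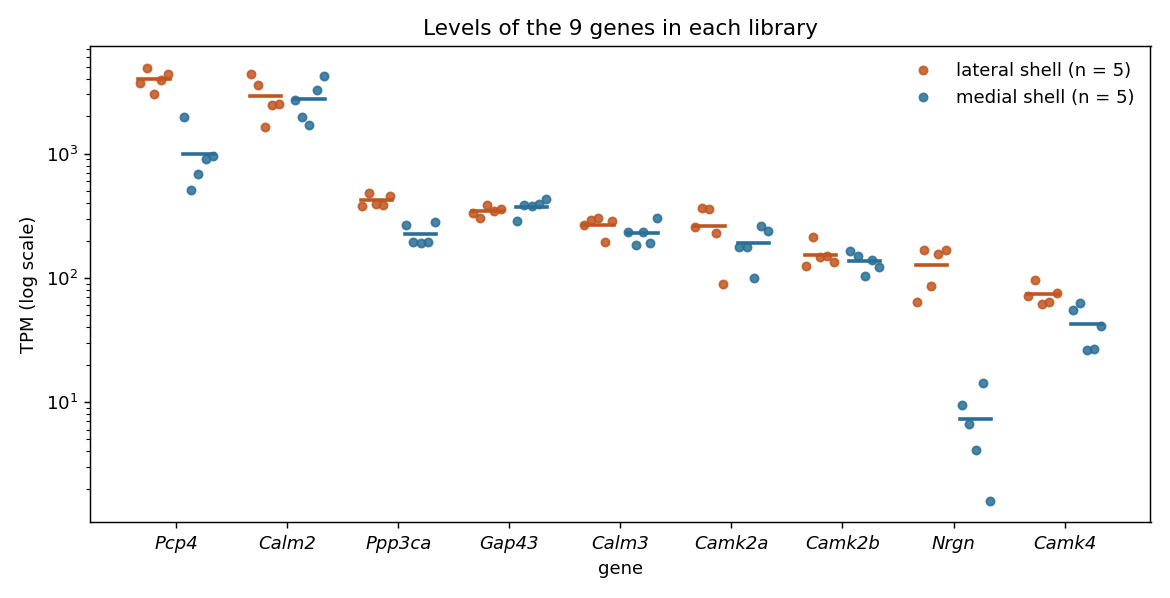
TPM of the 9 genes on a log axis, 1 point per library and a line at the mean of each region (5 lateral and 5 medial libraries). Nrgn, Pcp4 and Ppp3ca are the genes whose regions do not overlap, with mean Nrgn levels of 128 (lateral) and 7.26 TPM (medial).

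Calm2 and Calm3, which encode calmodulin itself, had levels that overlapped between the regions. They give one and the same protein from different DNA: their reading frames of 447 bases gave 1 distinct translation while sharing 369 bases, and the longest run shared at the same position was 17 bases. The first 60 coding bases are shown to make this visible, with capitals at the 8 positions where they differ.
Calm2: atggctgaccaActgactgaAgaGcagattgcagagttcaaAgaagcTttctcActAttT
Calm3: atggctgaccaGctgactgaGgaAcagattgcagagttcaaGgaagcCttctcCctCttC
These lie within 87435909 to 87446795 on chromosome 17 and 16917703 to 16923843 on chromosome 7 of GRCm38, both on the minus strand and each split over 3 coding exons. No source used here says how reads that fit more than 1 copy were counted.

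Calm2 was above Calm3 in every library. Its lateral levels were 4359, 3606, 1634, 2482 and 2515 TPM and its medial levels 2703, 1985, 1708, 3268 and 4188 TPM. The regions covered nearly the same range, with a log2 difference of 0.07 (standard error 0.29) that was -0.15 under quantile normalization. Calm3 was at 265, 295, 301, 196 and 287 TPM in lateral and 236, 184, 236, 192 and 305 TPM in medial libraries, again overlapping. Its log2 difference was 0.23 (standard error 0.18). Over 23 alternatives it ran from 0.13 to 0.44, the highest under median-ratio scaling. Calm2 made up 90.7 ± 3.87% of the summed TPM of Calm2 and Calm3 in lateral and 91.8 ± 2.48% in medial libraries (SD, n = 5 each).

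Set against Calm2 and Calm3, the IQ proteins had different balances in the regions. The summed TPM of Calm2 and Calm3 ran from 1935 to 4625 in lateral and from 1944 to 4493 in medial libraries. Pcp4 came to 80.2% to 157% of that sum in lateral and to 21.3% to 66.7% in medial libraries, and Nrgn to 1.38% to 5.98% and 0.04% to 0.42%. Nrgn, Pcp4 and Gap43 together came to 88.7% to 182% of the sum in lateral and 30.9% to 76.8% in medial libraries. Each of these 3 pairs of ranges was free of overlap, whereas Gap43 alone was at 7.15% to 20.0% and 9.55% to 19.6%. These are ratios of messages per gene length, not of proteins.

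The kinase genes showed smaller or no visible gaps. Camk2a and Camk2b encode the alpha and beta subunits of CaM kinase II, the abundant kinase of the postsynaptic density. Camk2a was at 259, 365, 361, 229 and 89.3 TPM in lateral and 176, 176, 99.8, 260 and 241 TPM in medial replicates 1 to 5. Lateral replicate 5 held the lowest of the 10 values, and the ranges overlapped. The log2 difference was 0.37 (standard error 0.36), and 0.71 without lateral replicate 5. Camk2b was at 124, 212, 149, 151 and 136 TPM in lateral and 164, 151, 104, 140 and 122 TPM in medial libraries (log2 difference 0.17, standard error 0.18), also with overlap. Camk2a made up 35.9% to 66.6% of the TPM of the 4 CaM kinase II genes in lateral and 42.4% to 60.8% in medial libraries. Camk2a lies at 60925618 to 60988152 and Camk4 at 32934931 to 33191228, both on the plus strand of chromosome 18, and Camk2b at 5969644 to 6066362 on the minus strand of chromosome 11.

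Camk4, encoding the nuclear CaM kinase IV that phosphorylates CREB, came close to separating the regions. It was at 71.3, 96.7, 61.4, 63.5 and 75.0 TPM in lateral and 54.7, 62.6, 26.1, 26.8 and 41.1 TPM in medial replicates 1 to 5. Only medial replicate 2 reached into the lateral range, by a little above the lowest lateral library. The log2 difference was 0.85 with a standard error of 0.25. Camk4 overlaps 2310026I22Rik on the other strand; without strand in the counting, their reads would mix.

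Ppp3ca, encoding the alpha catalytic subunit of calcineurin, was the third gene without overlap. It was at 377, 481, 395, 390 and 460 TPM in lateral and 266, 195, 192, 194 and 282 TPM in medial replicates 1 to 5. The lowest lateral library was 1.34 times the highest medial one. Means were 421 ± 46.5 and 226 ± 44.3 TPM (SD, n = 5 each), a log2 difference of 0.91 with a standard error of 0.16. Among the catalytic subunit genes, Ppp3ca took 87.8% to 90.8% of the TPM in lateral and 79.5% to 82.4% in medial libraries, without overlap. Ppp3cb, the beta catalytic subunit, was at 44.8 ± 7.35 and 45.8 ± 8.51 TPM (SD, n = 5 each; limma adjusted p = 0.963). Ppp3ca (chromosome 3, 136670124 to 136937727, plus strand) overlaps Gm42822 on its own strand and 4930599N24Rik and Gm44327 on the other.

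**Figure D2:**
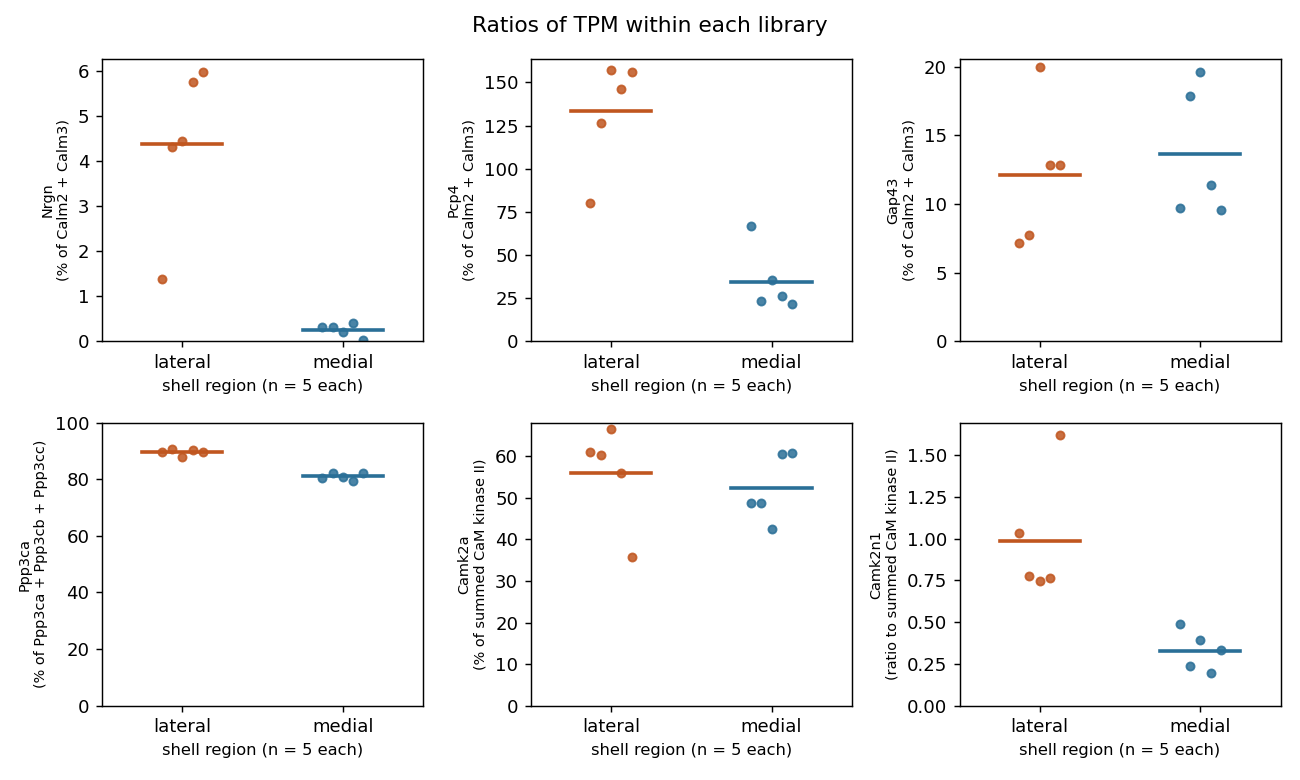
Ratios of TPM within each library, 1 point per library and a line at the mean of each region (n = 5 each), all axes starting at 0. The panels for Nrgn, Pcp4, Ppp3ca and Camk2n1 have no overlap between the regions, while those for Gap43 and Camk2a do.

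Over the 9 genes, 8 had a higher mean log2 value in the lateral shell and Gap43 in the medial shell, with a median log2 difference of 0.37 against -0.21 over all 15596 genes tested. Of all genes tested, 31.3% had a higher lateral value. In the fit across all genes 3 of the 9, Nrgn, Pcp4 and Ppp3ca, lay under an adjusted p of 0.05, where 1.48% of all genes did in either direction, 0.385% towards lateral and 1.1% towards medial (60 and 171 genes; 88 and 82 under median-ratio scaling and 86 and 100 under quantile normalization). The same 3 did not overlap and were higher in lateral, as were 0.859% of all genes. Nothing is read from these counts, since the same contrast was used to choose the genes. By mean level the lateral order was Pcp4, Calm2, Ppp3ca, Gap43, Calm3, Camk2a, Camk2b, Nrgn and Camk4, and neighbours overlapped except Calm2 with Ppp3ca and Gap43 with Calm3. The medial order was Calm2, Pcp4, Gap43, Calm3, Ppp3ca, Camk2a, Camk2b, Camk4 and Nrgn. There Pcp4 and Gap43, Camk2b and Camk4, and Camk4 and Nrgn were the neighbours that did not overlap.

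Other genes of calmodulin signalling were taken from 6 lists by function, which were chosen with earlier results of these data known. Of these genes 4 passed the test, and all 4 were higher in the lateral shell. Of 70 such genes 64 were in the table and 59 were tested. With limma 4 passed towards lateral and 0 towards medial at an adjusted p under 0.05 over all genes, and 9 and 4 did at an unadjusted p under 0.05. Over all 15596 genes tested, 0.385% passed towards lateral and 1.1% towards medial, and 2399 genes were under that unadjusted p in either direction. The median log2 fold change of the 59 was 0.05, against -0.21 over all genes. Of the 59, 31 had higher lateral values, against 31.3% of all genes tested. Those that passed were Camk2n1, Camk1d, Adcy1 and Atp2b1. Camk2n1 alone passed without lateral replicate 5 and medial replicate 2, the libraries in which the noncoding gene AY036118 was near 0.

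Camk2n1, encoding an inhibitor of CaM kinase II, was the clearest of them. It was at 439, 470, 404, 312 and 404 TPM in lateral and 176, 85.6, 92.2, 82.6 and 131 TPM in medial replicates 1 to 5. Every lateral library lay above every medial one, with means of 406 ± 59.2 and 113 ± 40.1 TPM (SD, n = 5 each). It rose by 1.88 on the log2 scale in lateral libraries (standard error 0.21), with a limma adjusted p = 0.00112 and no more than 0.015 in any of 23 alternative fits. The ratio of Camk2n1 to the summed CaM kinase II genes was 0.75 to 1.62 in lateral and 0.19 to 0.49 in medial libraries. Thus the message of the inhibitor differed while those of its targets Camk2a and Camk2b overlapped. The other gene to pass from the list of CaM kinases and their inhibitors was Camk1d, which overlaps Gm13216 on the other strand. Camk1d, encoding a CaM kinase I isoform, was at 39.7 ± 8.14 against 16.6 ± 5.12 TPM (SD, n = 5 each). Its log2 fold change was 1.25 (limma adjusted p = 0.0287). Leaving out lateral replicate 2, 3 or 5, or medial replicate 2, 3, 4 or 5, ended its call, with an adjusted p as high as 0.0683.

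The remaining 2 belong to effectors that calmodulin stimulates. Adcy1, the calcium-activated adenylyl cyclase, was at 14.8, 21.1, 18.0, 10.3 and 14.1 TPM in lateral and 7.72, 3.11, 4.29, 6.73 and 5.72 TPM in medial replicates 1 to 5. The regions did not overlap (log2 fold change 1.37, limma adjusted p = 0.0344). Atp2b1, a calcium pump of the plasma membrane, was at 145 ± 32.7 against 70.6 ± 23.8 TPM (SD, n = 5 each; log2 fold change 1.06, limma adjusted p = 0.0398). Its highest medial library, at 106 TPM, lay just above its lowest lateral library, at 103 TPM. Leaving out 1 library ended the call of Adcy1, except for lateral replicate 4 and medial replicate 1 (adjusted p no higher than 0.0833). For Atp2b1 it did so except for lateral replicate 3 and medial replicate 1 (no higher than 0.0945). Over all 23 alternative limma fits, the call was lost in 10 for Camk1d, 11 for Adcy1 and 15 for Atp2b1. The adjusted p reached 0.121, 0.146 and 0.170 in turn.

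No gene of the other 4 lists passed. In the protein kinase C list, 5 of 7 tested genes had higher lateral values, against 31.3% of all genes tested. Prkcb was at 127 ± 24.1 and 77.6 ± 13.0 TPM without overlap (SD, n = 5 each, limma adjusted p = 0.0734). Over 23 alternative limma fits its adjusted p ran from 0.0275, under median-ratio scaling, to 0.181. In 20 of these fits it did not pass. Prkch was at 25.3 ± 2.96 and 39.5 ± 11.3 TPM (SD, n = 5 each; limma adjusted p = 0.221). In the calcineurin list, Ppp3r1, the regulatory subunit, which overlaps Wdr92 on the same strand, was at 393 ± 82.3 and 271 ± 55.4 TPM (adjusted p = 0.203) and Ppp3cc at 3.50 ± 3.11 and 6.91 ± 1.70 TPM (adjusted p = 0.308). Of the calmodulin-like genes, Caln1 was at 63.6 ± 7.05 in lateral and 92.1 ± 7.64 TPM in medial libraries without overlap. Its limma adjusted p was 0.0931, and 0.376 under median-ratio scaling. A330070K13Rik overlaps Caln1 on the other strand. Pcp4l1, the relative of Pcp4 with an IQ motif of its own, was at 694 ± 164 and 792 ± 179 TPM (log2 fold change -0.20, adjusted p = 0.69), and Marcks and Marcksl1, substrates of protein kinase C, had higher medial means. Marcks was at 90.6 ± 15.3 and 131 ± 43.8 TPM (adjusted p = 0.344) and Marcksl1 at 12.6 ± 4.03 and 20.9 ± 14.7 TPM (SD, n = 5 each; limma adjusted p = 0.633).

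**Figure D3:**
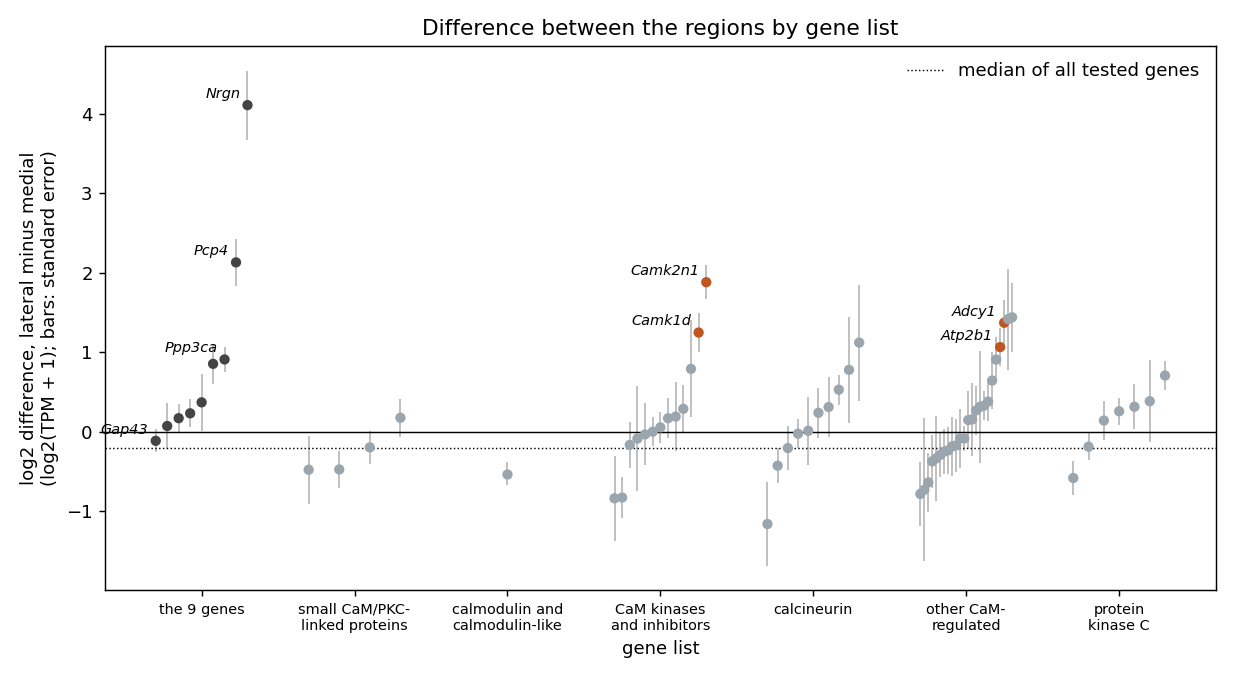
Log2 difference, lateral minus medial, with its standard error for each tested gene of the 7 lists; orange points passed at a limma adjusted p under 0.05, grey points did not, and the 9 genes in black are shown as a description, since this contrast was used to choose them. Camk2n1, Camk1d, Adcy1 and Atp2b1 passed, and the dotted line marks the median of all genes at -0.21.

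Profiles over the 10 libraries most like those of Nrgn and Pcp4 were sought among 10896 other genes averaging 5 TPM or more, by the root mean square difference of centred log2(TPM + 1) values. Nearest to Nrgn were Fgf3 (0.73), Gpr101 (1.03), Igfbp6 (1.04), Htr2a (1.06) and Gm27529 (1.08), against a median of 2.34 over all genes compared. Gm27529 was at 3.71 to 16.2 TPM in lateral and 0 to 1.53 TPM in medial libraries. Nearest to Pcp4 were Cd4 (0.33), Camk2n1 (0.34), Lynx1 (0.34), Plxnd1 (0.40) and Htr1b (0.41), against a median of 1.35. Cd4 was at 39.0 ± 11.8 and 10.1 ± 8.09 TPM and Lynx1 at 60.3 ± 17.7 and 20.1 ± 12.1 TPM (SD, n = 5 each). The measure takes in the size of the difference, so genes of a like gap between regions come out as near. The floor of 5 TPM was set on the mean over all 10 libraries, so genes high in 1 region only could enter. Fgf3 (mean 11.4 TPM in lateral, 0.07 TPM in medial) and Gpr101 (11.8 and 0.07 TPM) were at 0 in 4 of 5 medial libraries. Nrgn and Pcp4 were chosen with this contrast known, so neighbours that differ between the regions follow from that choice and are a description only. Nrgn and Pcp4 were 1.25 apart, which ranked Pcp4 at 11 from Nrgn but Nrgn at 3205 from Pcp4 among the 10896 genes.

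The tissue label was checked against cell type markers. All 12 markers of spiny projection neurons were above 0 in every library, summed to 4159 to 6450 TPM in lateral and 4328 to 6840 TPM in medial libraries, and 0 passed with limma; 5 had higher values in lateral and 7 in medial libraries. Over all 15596 genes tested, 31.3% had higher lateral values and 2399 had an unadjusted limma p under 0.05 in either direction. Of these markers, 1 was under that p towards lateral and 2 were towards medial. The first was Ppp1r1b (820 ± 166 against 604 ± 148 TPM; limma adjusted p = 0.288), which with Penk (2549 ± 779 against 2288 ± 563 TPM) led the list. The others were Tac1 (317 ± 141 against 540 ± 131 TPM; adjusted p = 0.151) and Pdyn (238 ± 121 against 469 ± 220 TPM; adjusted p = 0.205; SD, n = 5 each, limma). Nrgn and Camk2a are also abundant in cortical glutamatergic neurons. Of 11 markers of those cells 5 were in the table and the others were not analysed here. The 5 summed to 4.61 to 39.0 TPM in lateral and 28.9 to 45.1 TPM in medial libraries, with Sv2b at 1.79 to 35.6 and 20.7 to 41.1 TPM. Neurod6 reached at most 3.31 TPM, Slc30a3 0.52 TPM and Fezf2 1.49 TPM, and each was listed at 0 in some libraries. Sv2b, with means of 17.6 (lateral) and 32.8 TPM (medial), held most of the mean sums of 21.8 and 37.7 TPM. Lateral and medial means were 2.81 and 4.24 TPM for Cux2 and 0.05 and 0.10 TPM for Slc30a3. They were 0.79 and 0.21 TPM for Neurod6 and 0.50 and 0.27 TPM for Fezf2, so the 5 genes did not share a direction.

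All 9 microglia markers had higher lateral values and 3 passed (summed 414 to 645 against 194 to 422 TPM): C1qa (106 ± 15.9 against 52.3 ± 19.8 TPM), Ctss (88.6 ± 24.5 against 40.2 ± 13.4 TPM) and Tmem119 (21.2 ± 6.14 against 7.10 ± 3.61 TPM; SD, n = 5 each; limma adjusted p from 0.035 to 0.0388). All 9 oligodendrocyte markers had higher lateral values and 0 passed with limma (4 at an unadjusted p under 0.05; summed 310 to 999.8 against 113 to 496 TPM). The 6 tested of 7 interneuron markers were higher in lateral and 0 passed with limma (3 at an unadjusted p under 0.05; summed 482 to 5619 against 23.8 to 1664 TPM). Neuroblast markers summed to 11.5 to 31.7 TPM in lateral and 36.9 to 58.4 TPM in medial libraries, and Sox11 passed towards medial (10.7 ± 3.85 against 31.6 ± 11.5 TPM; SD, n = 5 each; limma adjusted p = 0.0332). Astrocyte (448 to 645 against 567 to 739 TPM, with Ntsr2 passing towards medial at a limma adjusted p of 0.0492), cholinergic (2.41 to 204 against 1.38 to 166 TPM), septal (2.59 to 14.4 against 1.57 to 15.2 TPM), endothelial (134 to 341 against 157 to 248 TPM) and oligodendrocyte precursor sums (3.04 to 24.5 against 6.85 to 25.7 TPM) overlapped. Leaving out 1 library gave 0 to 4 marker calls towards lateral, where 0 remained on dropping lateral replicate 1, 2 or 4, or medial replicate 2 or 4, and 0 to 1 towards medial. As background to these counts, 31.3% of all 15596 genes tested had higher lateral values and 2399 had an unadjusted limma p under 0.05. The part of these cell types in the levels of Nrgn, Pcp4 and Ppp3ca was not tested.

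**Figure D4:**
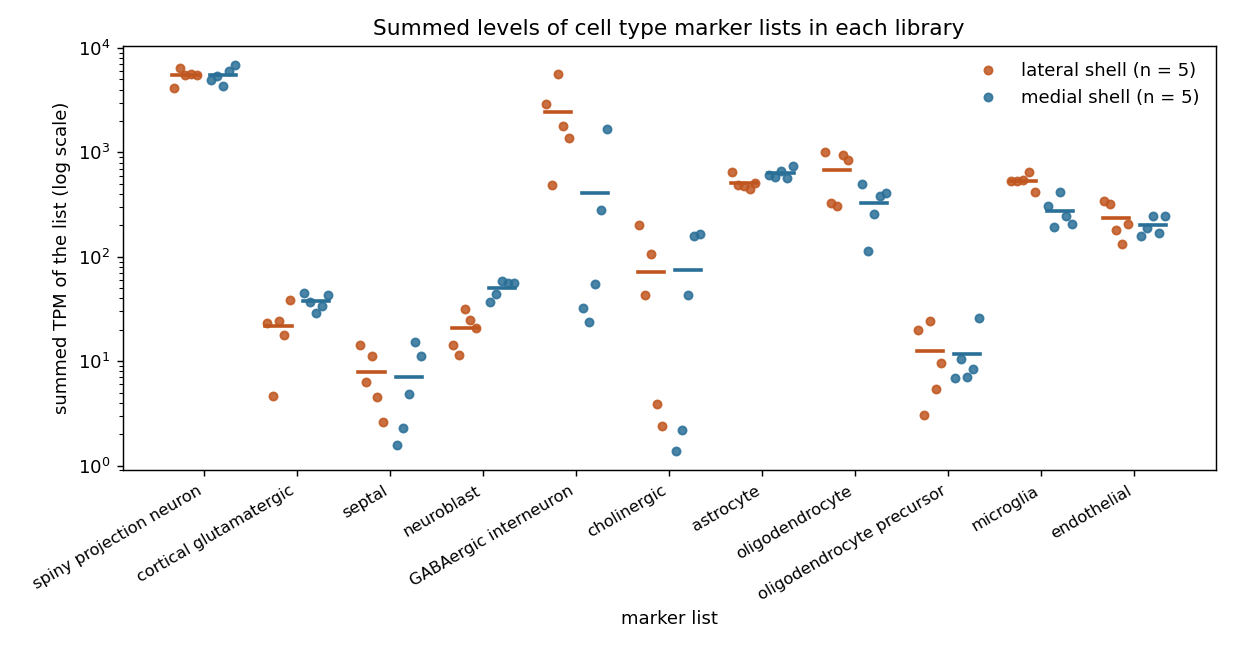
Summed TPM of 11 cell type marker lists on a log axis, 1 point per library and a line at the mean of each region (n = 5 each). Spiny projection neuron sums overlap closely, and microglia sums run from 414 to 645 TPM in lateral and 194 to 422 TPM in medial libraries.

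The libraries listed 15402 to 17003 genes above 0, and mitochondrially encoded genes took 23.5% to 35.3% of their TPM. AY036118 was at 1.38 TPM in lateral replicate 5 and 1.42 TPM in medial replicate 2 and from 82500 to 144263 TPM elsewhere. Without both libraries the log2 difference was 4.02 for Nrgn, 1.88 for Pcp4, 0.83 for Ppp3ca, 1.00 for Camk4 and 0.70 for Camk2a.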

How the data were processed

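RNA of captured lateral and medial shell tissue was sequenced in 10 libraries, grouped by their titles. The authors deposited TPM values as 1 table with 1 column per library, each summing to 1000000. Per the submitters' processing notes, the tools were featureCounts 1.6.3, StringTie 1.3.4, HISAT2 2.1.0 and fastp 0.20.0, on GRCm38; their roles, the annotation and strand use are not stated. TPM keeps no depth, so depth is unknown and no counting interval is given.

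Genes with at least 1 TPM in at least 5 libraries were fitted with limma 3.58.1 (R 4.3.3; empirical Bayes with a mean-variance trend) on log2(TPM + 1), lateral minus medial, with Benjamini-Hochberg adjustment over all genes and a threshold of 0.05. The script was tested on simulated data. Coordinates and coding sequences came from GENCODE M21, which holds all 20483 symbols. Alternatives changed the pseudocount, filter, scaling, variance model and replicate block, and left out each library in turn.

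The rule named the 9 genes, each list's genes that passed or else the 2 with the smallest p, the 5 nearest profiles to Nrgn and to Pcp4, and each marker list's 2 highest and passing genes, of which not all are given. Pcp4l1 and Ppp3cb were added as close relatives, Neurod6, Slc30a3 and Fezf2 as defining cortical markers, Tac1 and Pdyn for their direction, and AY036118 as a library check, after their values were seen. Some listed genes and a sequence are not reported here. The 9 genes and all lists were chosen with earlier results of these data known. Figures were drawn with matplotlib 3.10.9.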

Additional observations from a re-analysis of the deposited data

Results flagged for a closer look

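In 3 of 58 groups of 5 libraries checked, over 29 genes, 1 library lay far from the others relative to the range of its group; chance flags about 1 in 20 groups without tied values. Ppp3r1 was at 367 TPM in medial replicate 5, and the next medial library was at 261 TPM. Fgf3 was at 0.37 TPM in medial replicate 4 and Gpr101 at 0.36 TPM in medial replicate 3, and each was listed at 0 in the 4 other medial libraries, where any value above 0 stands apart by construction. None of the 9 genes followed here had such a library in either region.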

How the results depend on the processing

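Over 23 alternatives the log2 difference of Nrgn stayed between 3.44 (pseudocount of 5) and 4.39 (without medial replicate 4) and that of Pcp4 between 1.88 and 2.41. The 4 calls of other calmodulin genes towards lateral became 2 without a filter on low values or without a mean-variance trend, 1 with a replicate block, and 1 without both libraries low in AY036118 (added after seeing the data); leaving out single libraries gave 1 to 4, and 0 to 1 towards medial. Over all genes, the 60 calls towards lateral became 34 without a trend, 19 with a replicate block and 15 without both libraries, and 27 to 68 without a single library. The 171 towards medial became 82 with median-ratio scaling, 100 with quantile normalization, 107 with a pseudocount of 0.1, 111 without a trend, 45 with a replicate block, 35 without both libraries, and 56 to 187 without a single library. The 3 marker calls towards lateral and 2 towards medial became 1 and 1 without a filter, with a pseudocount of 0.1 or with a replicate block, and 0 and 0 without a trend or without both libraries; towards medial they were 0 with median-ratio scaling or quantile normalization and 1 with robust empirical Bayes or sample weights, and single libraries gave 0 to 4 and 0 to 1. Median-ratio scaling moved the median of all genes from -0.21 to -0.02. Correlations between same-numbered libraries, on deviations from the region mean, ran from -0.05 to 0.04, and 0 of 10 libraries matched best with their own number. Such values cannot tell whether same-numbered libraries shared an animal, because other variation between libraries could hide it. Gap43 moved to 0.10 under median-ratio scaling, and Calm2 changed sign in 5 of 23 alternatives. The cause of these shifts was not tested. TPM carries no depth, so the precision of low values such as medial Nrgn is unknown.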
